A study of Mus musculus with 24 samples.

Results

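Intragenic regions away from gene ends are stretches of accessible chromatin that lie inside the body of a protein-coding gene, between its RefSeq start and end on mm10, and more than 1 kb from the end of any protein-coding gene. The rule used position alone and no measured value. It selected 3529 of the 13910 regions counted in the study, which is 26.0% of the 13549 regions on chromosomes 1 to 19. The study profiled donor blood stem and progenitor cells by ATAC-seq, an assay that reads open chromatin from where the transposase Tn5 has cut and tagged the DNA. Marrow of WT CD45.1 donors had been transplanted into young CD45.2 recipients that were either WT or of a line designated IκB–, whose genetic change the labels do not describe. After 13 to 15 weeks, between 500 and 1500 cells per sample were sorted from lineage-depleted marrow of femur and tibia as Lin– Sca1+ cKitHi cells. The 4 subsets were HSC, MPP2 (Flt3– CD150+ CD48+), MPP3 (Flt3– CD150– CD48+) and MPP4 (Flt3+), and the protocol gives the HSC gate as CD150– CD48–. Long-term HSC are usually sorted as CD150+, so the written gate does not match the name HSC, which is used here as the labels give it. With 2 recipient types this made 8 groups of 3 libraries. All the cells profiled were donor cells, so a difference between recipients compares the same donor type in 2 hosts, and cells of IκB– genotype were not profiled.

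Open chromatin inside a gene is usually one of a few kinds of element. Enhancers, often placed in introns, are bound by lineage transcription factors and act on promoters at a distance, and in blood progenitors many of them open or close as cells choose a lineage. A gene body can also hold an internal promoter, from which a shorter transcript of the same gene starts. Promoters of widely used genes tend to stay open in all cell types, whereas enhancers are more specific to a cell type. The assay does not tell these kinds apart, and no enhancer mark was measured here.

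An internal start could be recognised from RefSeq, whose promoter windows run from 250 bases before to 50 bases after a start. Internal refers only to the outermost RefSeq ends of a gene, so such a start can also be its main one, which was not examined. Of the intragenic regions, 681 (19.3%) overlapped a promoter window of a protein-coding gene, in 678 cases of the host gene itself, and 2848 did not. The 769 windows in these regions had a median GC content of 63.3% and a median of 23 CpG dinucleotides, and 76.6% held 15 or more, against 85.4% of the 6649 windows in regions near gene ends and 48.1% of all 20084 windows. Searched on both strands and allowing overlaps, the ETS motif CCGGAAGT was found in 7.80% of them, against 10.5% of windows in gene-end regions and 5.28% of all windows. In the same order the RUNX motif TGTGGT was found in 11.4%, 11.1% and 14.8%, the GATA motif AGATAA in 5.46%, 4.42% and 9.57%, the AP-1 motif TGANTCA in 3.38%, 3.58% and 7.06%, and the CRE motif TGACGTCA in 3.12%, 4.14% and 2.30%. The NRF1 consensus motif was found in 2.34%, 2.78% and 1.34%, and the NF-κB consensus motif in 0.650%, 0.286% and 0.433%. A match to these letters describes the sequence and does not show binding. The 6 windows below (RefSeq, GRCm38.p6, the same primary assembly as mm10) lie in regions whose values are given further on. Lrif1 and Mcl1 are shown because they differed between recipients. Tmcc2, Cd46, Limk1 and Csf3r are shown because they differed among subsets. They lie at chr3:106721432-106721731 (plus strand), chr3:95658471-95658770 (plus), chr1:132367899-132368198 (minus), chr1:195092199-195092498 (minus), chr5:134678199-134678498 (minus) and chr4:126024409-126024708 (plus), in that order. Each reads 5′ to 3′ along its gene, and capitals mark an ETS match in Lrif1, a GATA match in Tmcc2 and a RUNX match in Limk1.
Lrif1: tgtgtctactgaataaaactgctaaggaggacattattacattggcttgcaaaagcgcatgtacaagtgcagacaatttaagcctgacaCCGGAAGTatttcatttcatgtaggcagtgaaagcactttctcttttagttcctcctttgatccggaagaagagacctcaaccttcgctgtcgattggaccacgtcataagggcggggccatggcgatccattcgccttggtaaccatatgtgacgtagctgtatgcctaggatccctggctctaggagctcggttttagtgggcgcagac
Mcl1: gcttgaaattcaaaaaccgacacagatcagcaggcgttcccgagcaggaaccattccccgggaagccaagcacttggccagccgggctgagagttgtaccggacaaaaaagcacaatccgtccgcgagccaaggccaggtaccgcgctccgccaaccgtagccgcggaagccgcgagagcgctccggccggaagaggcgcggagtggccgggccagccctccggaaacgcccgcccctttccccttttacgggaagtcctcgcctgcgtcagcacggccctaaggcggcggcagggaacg
Tmcc2: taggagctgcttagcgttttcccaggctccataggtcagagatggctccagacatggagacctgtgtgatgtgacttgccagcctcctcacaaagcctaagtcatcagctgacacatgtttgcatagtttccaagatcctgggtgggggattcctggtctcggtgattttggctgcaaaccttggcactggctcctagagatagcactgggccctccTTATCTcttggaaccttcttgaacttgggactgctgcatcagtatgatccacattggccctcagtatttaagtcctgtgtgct
Cd46: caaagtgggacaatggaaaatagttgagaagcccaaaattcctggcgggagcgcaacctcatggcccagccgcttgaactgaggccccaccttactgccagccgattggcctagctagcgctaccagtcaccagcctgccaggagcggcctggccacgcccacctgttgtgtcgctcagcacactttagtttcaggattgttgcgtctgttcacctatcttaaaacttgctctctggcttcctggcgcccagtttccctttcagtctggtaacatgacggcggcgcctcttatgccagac
Limk1: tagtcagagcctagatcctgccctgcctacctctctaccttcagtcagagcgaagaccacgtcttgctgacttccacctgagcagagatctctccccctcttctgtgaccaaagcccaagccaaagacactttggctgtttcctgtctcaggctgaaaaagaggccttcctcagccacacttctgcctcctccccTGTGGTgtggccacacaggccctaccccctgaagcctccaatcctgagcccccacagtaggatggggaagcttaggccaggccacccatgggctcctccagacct
Csf3r: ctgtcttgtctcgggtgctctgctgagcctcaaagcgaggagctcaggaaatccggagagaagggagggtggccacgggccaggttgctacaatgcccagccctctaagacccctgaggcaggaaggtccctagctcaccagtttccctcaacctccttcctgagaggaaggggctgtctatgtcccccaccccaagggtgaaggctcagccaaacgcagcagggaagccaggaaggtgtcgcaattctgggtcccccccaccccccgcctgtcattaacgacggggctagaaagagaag
These windows differ in base composition. The Mcl1 window has a GC content of 65.7% and 33 CpG dinucleotides, whereas Tmcc2 and Limk1 have 51.0% and 58.0% GC and 2 CpG each. Lrif1 has 47.7% GC and 12 CpG, Cd46 has 56.3% and 13, and Csf3r has 60.7% and 9.

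The intragenic regions were narrow and weakly accessible compared with those at gene ends. Their median width was 291 bp (120 to 1532 bp), against 403 bp for the 7398 regions within 1 kb of a gene end. Their median level was 36.3 CPM (counts scaled to a common library size after TMM scaling), against 66.3 near gene ends, 34.0 in the 1701 intergenic regions up to 50 kb away and 31.6 in the 921 beyond. Those with an internal start lay nearer to the gene-end level, at 60.6 CPM, than those without, at 33.4 CPM. The distance to the nearest gene end had a median of 14.0 kb, with quartiles at 4.54 and 41.2 kb and a maximum of 1100.52 kb. At the edge of the rule, the 259 members 1 to 1.5 kb from a gene end had a median of 51.9 CPM and the 355 intragenic regions 0.5 to 1 kb away, which the rule left out, 47.7 CPM. The share of regions that were intragenic ran from 23.9% on chromosome 2 to 29.2% on chromosome 14. They lay in 2549 host genes, 1902 of which held 1, and 40 lay in more than 1 gene. After the filter on low counts 3318 were tested and 211 were not.

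Depth was limited, and this bears on each result. Total counts per replicate, with replicates 2 and 3 of WT MPP3 summed, ran from 121599 to 963699 with a median of 284353. They were 121599 to 255584 in HSC and 363609 to 963699 in MPP3, and the median intragenic region had 4 to 34 counts in a replicate. Replicates 2 and 3 of WT MPP3 agreed within the sampling noise (a chi-square test over 13126 regions gave p 0.348 and 1.005 per degree of freedom, where other pairs gave 1.31 to 4.12) and were counted as 1 sample, leaving 23 replicates with n = 2 in WT MPP3. The labels do not say whether replicates came from separate recipients, so p-values measure the spread between these samples, which may be technical. IκB– HSC replicate 3 stood apart: 74.1% of its autosomal counts lay within 1 kb of gene ends, against 61.7% to 71.9% in the other libraries, and the main counts of calls are also given with it left out. In these bulk samples fewer cells of a type with an open region and less accessibility per cell cannot be told apart.

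The intragenic regions together took a similar share of the counts in all 8 groups. The share was 18.4% ± 0.99 (SD, n = 3), 18.6% ± 0.34 (n = 3), 19.0% ± 0.039 (n = 2) and 19.0% ± 1.83 (n = 3) of autosomal counts in WT recipients, for HSC, MPP2, MPP3 and MPP4 in turn. In IκB– recipients it was 18.3% ± 2.16, 19.4% ± 0.17, 18.2% ± 0.59 and 19.4% ± 0.76 (n = 3 each). The lowest library, IκB– HSC replicate 3, had 15.9% and the highest, WT MPP4 replicate 1, had 20.9%. Averaged over subsets the recipients differed by 0.0837 percentage points, less than the spread between replicates (exact two-sided permutation of recipients within subsets, p 0.853 over 80000 arrangements). Against HSC the MPP2, MPP3 and MPP4 shares differed by 0.661, 0.255 and 0.844 points (exact permutation p 0.43, 0.78 and 0.325), and all 8 comparisons of shares had an adjusted p of 0.997.

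Between recipients, single intragenic regions changed in both directions. Averaged over the 4 subsets, 37 were higher and 57 lower in IκB– recipients, 94 of 3318 tested, or 2.83%, where 1.73% of all 13325 tested regions were called (0.608% higher and 1.13% lower). Called means an adjusted p under 0.05, which here is edgeR's quasi-likelihood test with Benjamini-Hochberg adjustment over all 13325 regions. By class of region, the share called was 3.47% in intergenic regions up to 50 kb from a gene end, 4.86% beyond and 0.539% near gene ends. Over the 94 the median absolute log2 fold change was 1.01. In none of the 94, nor in any other of the 3318 tested, did the 12 IκB– and 11 WT libraries separate completely. Leaving out 1 replicate at a time gave between 18 calls, when WT MPP3 replicates 2 and 3 were left out, and 162, when IκB– HSC replicate 1 was, and 60 (23 higher, 37 lower) without IκB– HSC replicate 3.

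**Figure D1:**
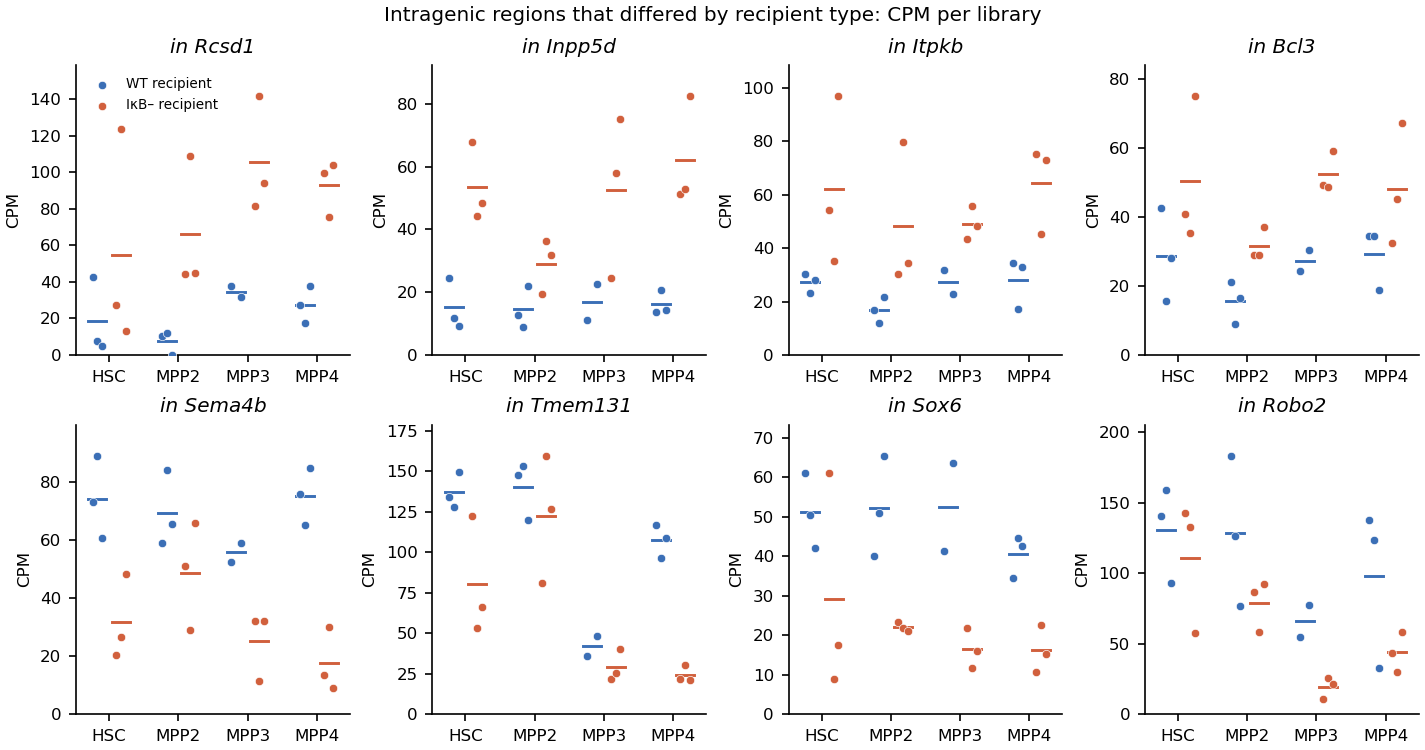
CPM of 8 intragenic regions in each library (vertical axis) by sorted subset (horizontal axis); points are libraries, blue for WT and orange for IκB– recipients, and short lines are group means. The upper row shows regions higher in IκB– recipients, such as Rcsd1 (log2 fold change 1.88), and the lower row regions that were lower, such as Sema4b (-1.23).

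The regions higher in IκB– recipients with the smallest p lay in Rcsd1, Inpp5d and Itpkb. Rcsd1, whose product binds the actin capping protein CapZ, held a region at chr1:165680082-165680428 with 0, 17.2 and 42.6 CPM (lowest, median, highest of 11 libraries) in WT and 13.2, 87.7 and 141 CPM (12 libraries) in IκB– recipients. All IκB– libraries other than HSC replicates 1 and 3 lay above all WT libraries, and the log2 fold change was 1.88 ± 0.29 (SE), adjusted p 0.000967. Inpp5d encodes SHIP1, a phosphatase that removes the 5-phosphate of the lipid made by PI3-kinase in blood cells. Its region at chr1:87650755-87651044 had 9.0, 13.8 and 24.4 CPM in WT and 19.3, 49.8 and 82.4 CPM in IκB– recipients (1.55 ± 0.27, adjusted p 0.0012). Itpkb, a kinase of inositol trisphosphate, held a region at chr1:180403737-180404042 with 12.0, 23.3 and 34.4 against 30.3, 51.3 and 96.9 CPM (1.19 ± 0.22, adjusted p 0.00274). In Inpp5d 1 of the 12 IκB– libraries fell into the WT range, and in Itpkb 2 did. Btbd9 (chr17:30518819-30519238) had medians of 16.9 and 43.2 CPM (1.20 ± 0.25, adjusted p 0.00746). Each of these 4 kept its call under all 30 alternative settings. Tgm2, a transglutaminase that cross-links proteins (chr2:158133141-158133441), had medians of 29.5 and 57.6 CPM (1.15 ± 0.25, adjusted p 0.0111), and its adjusted p was 0.0619 without IκB– HSC replicate 3.

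The 57 lower regions included ones in Sema4b, Plxnc1, Robo2, Tmem131 and Sox6. Sema4b, a membrane semaphorin, held a region at chr7:80208753-80209161 with 52.5, 65.5 and 89.2 CPM in WT and 9.15, 29.6 and 66.1 CPM in IκB– recipients (log2 fold change -1.23 ± 0.20, adjusted p 0.000969). Plxnc1, a semaphorin receptor, held a region at chr10:94931973-94932258 with 15.0, 56.0 and 65.9 against 2.68, 18.0 and 74.6 CPM (-1.42 ± 0.28, adjusted p 0.00355). Robo2, a receptor for Slit guidance proteins, held a region at chr16:75343206-75343966 with 33.1, 124 and 183 against 10.4, 57.6 and 142 CPM (-1.01 ± 0.20, adjusted p 0.00463). In all 3 the IκB– median lay under 60 CPM while the highest IκB– library reached into or above the WT range. Tmem131 (chr1:36919729-36920310), which takes part in collagen secretion, had medians of 120.0 and 46.6 CPM (-0.97 ± 0.17, adjusted p 0.00121). Sox6, a transcription factor of red cell and cartilage formation, held a region at chr7:115941879-115942116 with 34.4, 44.7 and 65.5 against 8.84, 19.4 and 61.1 CPM (-1.25 ± 0.23, adjusted p 0.00274). Samm50, of the mitochondrial outer membrane (chr15:84209856-84210180), had medians of 48.1 and 23.1 CPM (-1.14 ± 0.22, adjusted p 0.00288). Pdzd2 (chr15:12631463-12631844) had medians of 63.2 and 14.8 CPM (-1.49 ± 0.26, adjusted p 0.00162). These calls held under all 30 alternative settings.

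Within single subsets far fewer regions passed the test, and those that did were lower in IκB– recipients. In HSC and in MPP2, 0 intragenic regions were called, as in the whole set (0.0% of all tested), with 259 and 140 at an unadjusted p under 0.05; DESeq2 called 0 in both. In MPP3, 10 were called, all lower (0.21% of all tested regions were called, 0.0075% higher and 0.203% lower). Of intragenic regions 0.301% were called, and of intergenic ones 0.315% up to 50 kb from a gene end and 1.30% beyond. Dcc, a netrin receptor on chromosome 18, had 54.4 and 56.1 CPM in the 2 WT and 6.96, 8.05 and 10.4 CPM in the 3 IκB– MPP3 replicates (log2 fold change -2.58 ± 0.48, adjusted p 0.00859), and Thrb, a thyroid hormone receptor, 43.1 and 56.1 against 7.58, 9.28 and 13.4 CPM (-2.36 ± 0.46, adjusted p 0.00859). The groups do not overlap in either gene, as in 1005 of the 3318 tested intragenic regions, 679 of them lower in IκB– recipients. The other 8 included regions in Otogl, Pcdh7, Lims1, Thsd7a, Ptprk, Robo2 and Mef2c. This count rested on single libraries: it was 0 without WT MPP3 replicate 1, WT MPP3 replicates 2 and 3 or IκB– MPP3 replicate 1, 4 without IκB– MPP3 replicate 3, 16 without IκB– MPP3 replicate 2, 22 without IκB– HSC replicate 1 and 53 (4 higher, 49 lower) without IκB– HSC replicate 3. The 3 IκB– MPP3 libraries also had a larger share of counts at gene ends (68.9% to 71.9%) than the WT MPP3 replicates (67.6% and 67.7%). With the latter share added to the fit, a choice made after seeing the data, 16 regions were called, 8 in each direction.

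In MPP4, 3 intragenic regions were called, all lower (0.045% of all tested regions were called, 0.0075% higher and 0.0375% lower), and all 3 were also among the regions lower on average. Tmem131 had 96.3, 109 and 117 CPM in WT and 21.4, 21.5 and 30.1 CPM in IκB– MPP4 (log2 fold change -2.19 ± 0.38, adjusted p 0.0129). Sema4b had 65.3, 75.7 and 85.0 against 9.15, 13.5 and 30.1 CPM (-2.31 ± 0.47, adjusted p 0.0496). The semaphorin receptor gene Plxnc1 had 23.6, 58.5 and 62.0 against 3.05, 5.39 and 7.53 CPM (-3.21 ± 0.67, adjusted p 0.0496), on 31 counts in WT and 4 in IκB– recipients, a ratio of 9.95 with an exact 95% counting interval of 3.52 to 38.8. All 3 IκB– libraries lay below all WT libraries in these genes, as they did in 187 of the 3318 tested intragenic regions (424 did not overlap in either direction). Total counts, DESeq2's size factors and DESeq2 each gave 1 call, and leaving out 1 replicate gave 0 (without WT MPP4 replicate 2 or 3 or IκB– MPP4 replicate 1 or 3) to 3. A joint test of whether the recipient effect differed between subsets called 0 intragenic regions (0.0% of all tested, 197 intragenic regions at an unadjusted p under 0.05; DESeq2 called 0), so an effect called in one subset was not shown to differ from that in another.

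Internal starts seldom differed between recipients. Of 671 tested regions with an internal start 4 were called (0.596%), and of 2647 without one 90 (3.40%), against 1.73% of all regions and 0.539% near gene ends. Intergenic regions gave 3.47% up to 50 kb from a gene end and 4.86% beyond. Leaving out 1 replicate gave 0 (IκB– MPP4 replicate 3) to 10 (IκB– HSC replicate 1) with a start, and 2 when replicate 3 of IκB– HSC was left out. For regions with no start it gave 18 (WT MPP3 replicates 2 and 3) to 152 (IκB– HSC replicate 1), with 58 when replicate 3 of that group was left out. The split was made after seeing the data, and the difference between the classes was not tested. Lrif1, a nuclear chromatin factor, held a start region at chr3:106721520-106722400 with 163, 194 and 335 CPM in WT and 211, 290.2 and 409.8 CPM in IκB– recipients (0.45 ± 0.11 on the log2 scale, adjusted p 0.0274). Mcl1 encodes a BCL2 family protein that blocks apoptosis and is needed by blood stem cells. Its region (chr3:95658545-95659656), which lies 1.60 kb from the outermost RefSeq start of the gene and may hold its main start, had 57.0, 97.6 and 120.1 against 94.3, 118 and 207 CPM (0.61 ± 0.15, adjusted p 0.0323). The ranges of both genes overlapped, and the calls held under 26 and 20 of 30 alternatives, with adjusted p of 0.138 for Lrif1 without WT MPP3 replicates 2 and 3 and 0.111 for Mcl1 without IκB– MPP4 replicate 3. Within HSC alone, Lrif1 had 163, 171 and 194 CPM in WT and 309, 366 and 409.8 CPM in IκB– recipients without overlap, as in 323 of the 3318 tested intragenic regions. It did not pass the test there (1.05 ± 0.23, adjusted p 0.417). Atp2b2, a calcium pump, was lower (-0.90 ± 0.24, adjusted p 0.0422), a call held under 14 of 30 alternatives. The last of the 4, 4930453N24Rik, was higher and held under 8 (0.92 ± 0.26 on the log2 scale).

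Regions without an internal start also made up most calls among subsets. A joint test of any difference among the 4 subsets called 416 of 3318 intragenic regions (12.5%), where 7.2% of all tested regions were called. This was 404 of 2647 (15.3%) without an internal start and 12 of 671 (1.79%) with one, close to the 1.63% near gene ends, and intergenic regions gave 15.0% up to 50 kb and 21.0% beyond. Within bins of mean level the 2 classes stayed apart: without a start 16.2%, 16.3%, 13.6% and 5.17% were called at up to 25, 25 to 50, 50 to 100 and over 100 CPM, and with one 3.33%, 1.81%, 1.98% and 1.20%. The share called was larger at greater distance from the gene end, from 6.19% at 1 to 5 kb through 11.3% and 16.8% to 18.9% beyond 50 kb, and for the recipient effect it was 1.11%, 3.23%, 3.32% and 4.05%. The recipient shares moved with single replicates: at 1 to 5 kb from 0.109% (without IκB– MPP4 replicate 3) to 2.71%, and beyond 50 kb from 0.726% (without WT MPP3 replicates 2 and 3) to 6.39%, both highs when IκB– HSC replicate 1 was left out. These are descriptions of classes and were not tested. Leaving out 1 replicate at a time gave 0.90% to 5.33% with and 10.8% to 20.2% without an internal start in the joint test.

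**Figure D2:**
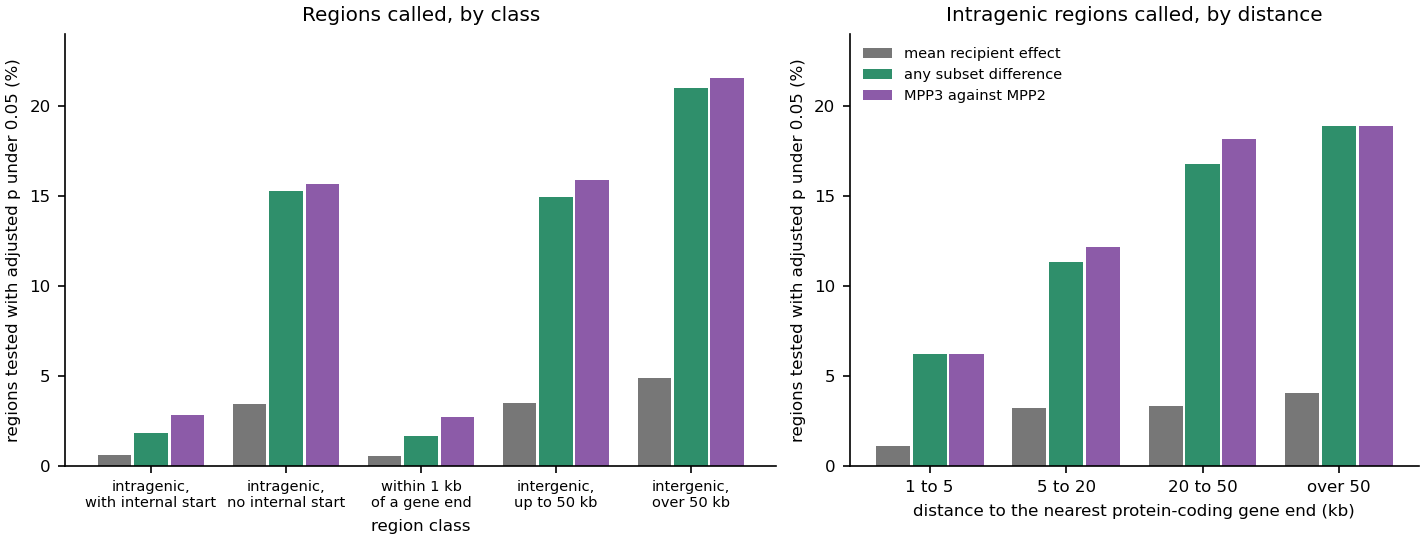
Percent of tested regions with an adjusted p under 0.05 (vertical axes), by class of region (left) and, for intragenic regions, by distance to the nearest gene end in kb (right), for the mean recipient effect (grey), any subset difference (green) and MPP3 against MPP2 (purple). Intragenic regions with an internal start (1.79% for any subset difference) stand near gene-end regions (1.63%) and those without one (15.3%) near intergenic regions.

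Among the 416 regions MPP2 was most often the subset with the highest level and MPP3 the one with the lowest. MPP2 had the highest fitted level in 202 and MPP3 the lowest in 212, and in 155 both held. MPP4 was highest in 115 and HSC lowest in 101. All 3 MPP subsets lay above HSC in 101 regions and below it in 60, and 255 were mixed. Against HSC, 4 intragenic regions were higher in MPP2 (0.03% of all tested regions; 1 region was called when IκB– HSC replicate 3 was left out), 41 were higher and 116 lower in MPP3 (2.58% of all tested regions were called, 0.63% higher and 1.95% lower), and 55 were higher and 25 lower in MPP4 (1.22%, with 0.788% higher and 0.435% lower). These contrasts share the HSC libraries. MPP4 against MPP3 gave 0 calls (0.0% of all tested, 188 intragenic regions at an unadjusted p under 0.05; DESeq2 called 0). Contrasts against MPP2, added after seeing the joint test, called 102 higher and 332 lower regions in MPP3 (8.12% of all tested, 1.85% higher and 6.27% lower) and 95 higher and 109 lower in MPP4 (3.37%, 1.43% higher and 1.94% lower), and these share the MPP2 libraries.

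**Figure D3:**
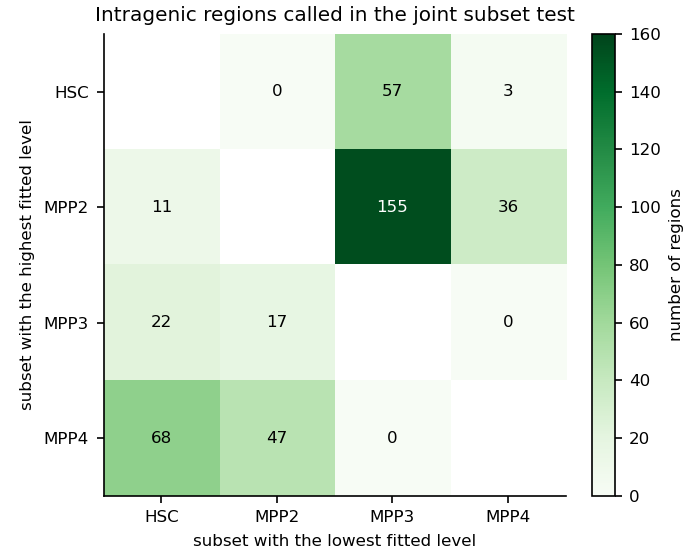
Number of intragenic regions called in the joint subset test (of 416), by the subset with the highest fitted level (rows) and the subset with the lowest (columns); darker green is more regions. The cell for highest in MPP2 and lowest in MPP3 holds 155, and highest in MPP4 and lowest in HSC holds 68.

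The direction of the HSC contrasts depended on scaling and on single libraries. With total counts in place of TMM the median of all regions in MPP3 against HSC moved by 0.136 on the log2 scale, and the split of 157 calls was 76 higher and 81 lower in place of 41 and 116. Without IκB– HSC replicate 3 there were 295 calls (73 higher, 222 lower) in MPP3 and 121 (51 higher, 70 lower) in MPP4 against HSC, and 1 in MPP2. Leaving out IκB– HSC replicate 1, the MPP3 count was 79, and leaving out IκB– MPP4 replicate 1 gave an MPP4 count of 24. MPP3 against MPP2 gave 259 calls without WT MPP2 replicate 1, and MPP4 against MPP2 83 without IκB– MPP4 replicate 3. Without IκB– HSC replicate 3 these 2 counts were 579 and 318, and the joint test called 587.

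The regions of smallest p included ones in Cavin2 and Gucy1b1 that were open in HSC and MPP2 and nearly closed in MPP3. Cavin2, a component of caveolae known from platelets and endothelium, held a region at chr1:51300260-51300616 where the 6 HSC replicates had 26.4, 109.6 and 163 CPM, the 6 MPP2 97.8, 124 and 166, the 5 MPP3 0, 12.1 and 15.0 and the 6 MPP4 6.10, 32.3 and 55.0. Every MPP3 value lay below every HSC and MPP2 value, and the log2 fold changes were -3.56 ± 0.43 against HSC (adjusted p 3.63e-06) and -3.97 ± 0.38 against MPP2 (1.15e-08). Gucy1b1 encodes a subunit of the soluble guanylate cyclase that senses nitric oxide. Its region at chr3:82061457-82061899 had 30.8, 50.02 and 88.2, then 49.1, 78.3 and 105, 0, 7.58 and 18.8, and 0, 11.6 and 20.6 CPM in the same order of subsets. It was lower in MPP3 (-3.08 ± 0.37, adjusted p 3.33e-07) and in MPP4 (-2.74 ± 0.40, 5.83e-05) than in MPP2. Tmem131, named above for its recipient effect, had medians of 125, 137 and 35.6 CPM in HSC, MPP2 and MPP3, while in MPP4 the recipients lay apart as given above. It was lower in MPP3 than in HSC (-1.61 ± 0.25, adjusted p 0.000107). All of these joint calls held under the 30 alternatives.

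A second pattern was a highest median in MPP2, with the HSC median closer to those of MPP3 and MPP4 than to that of MPP2. Crem, a transcription factor that responds to cyclic AMP, held a region on chromosome 18 where HSC had 26.4, 56.2 and 79.6 CPM, MPP2 98.2, 135 and 174, MPP3 22.7, 32.5 and 67.5 and MPP4 27.5, 61.9 and 89.5. No library of another subset reached the lowest MPP2 library. It was higher in MPP2 than in HSC (1.48 ± 0.26, adjusted p 0.00451, but 0.0636 when IκB– HSC replicate 3 was left out) and lower in MPP3 than in MPP2 (-1.76 ± 0.23, 1.95e-06). Ak7, an adenylate kinase, had medians of 33.8, 79.9, 15.0 and 14.0 CPM (MPP3 against MPP2 -2.41 ± 0.34, adjusted p 4.85e-06). Its contrast of MPP2 against HSC did not pass the test.

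**Figure D4:**
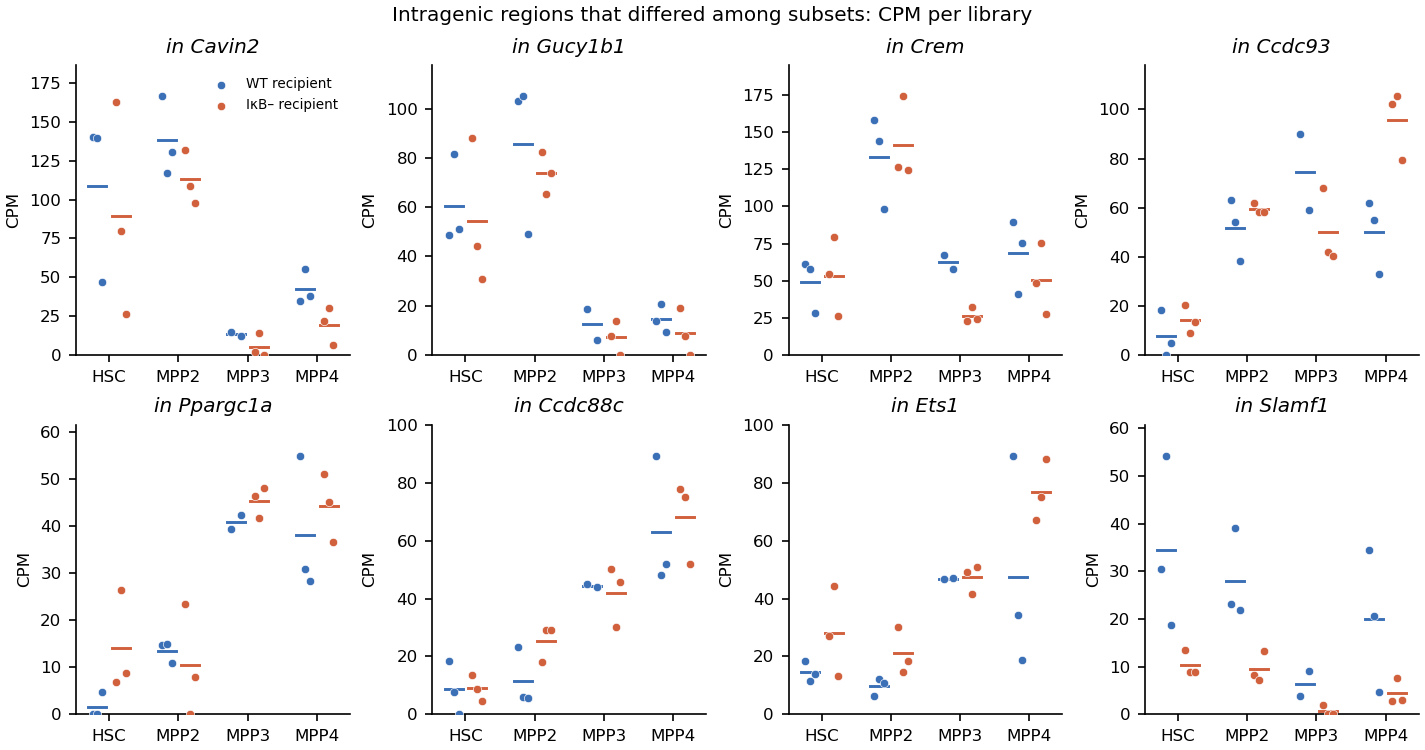
CPM of 8 intragenic regions in each library (vertical axis) by subset (horizontal axis); points are libraries, blue for WT and orange for IκB– recipients, and short lines are group means. Cavin2 and Gucy1b1 are high in HSC and MPP2 (medians of 109.6 and 124 CPM for Cavin2), Crem in MPP2, and Ppargc1a, Ccdc88c and Ets1 in MPP3 and MPP4.

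Other regions had higher medians in MPP3 and MPP4, and some also in MPP2, than in HSC. Ccdc93, part of an endosomal sorting complex, held a region at chr1:121478326-121478658 with HSC libraries at 0, 11.03 and 20.4 CPM, MPP2 at 38.2, 58.1 and 63.2, MPP3 at 40.2, 59.1 and 90.05 and MPP4 at 33.1, 70.6 and 105. All 17 MPP replicates lay above all 6 HSC libraries. The HSC libraries held 11 counts in all, and the pooled ratios were 5.95 (exact 95% counting interval 3.22 to 12.2), 6.43 (3.51 to 13.1) and 7.60 (4.08 to 15.7) for MPP2, MPP3 and MPP4. The fits gave adjusted p of 0.0015, 5.72e-05 and 0.00012. Ppargc1a encodes PGC-1α, a coactivator of mitochondrial genes, and its region at chr5:51494533-51494823 had medians of 5.72, 12.8, 42.4 and 40.9 CPM. Its lowest MPP3 library, at 39.4 CPM, was above the highest HSC and MPP2 libraries, at 26.5 and 23.4, with ratios over HSC of 7.05 (3.33 to 17.9) in MPP3 and 6.51 (2.97 to 16.9) in MPP4. Ccdc88c, a regulator of Wnt signalling (chr12:100986609-100986909), had medians of 8.30, 20.5, 45.0 and 63.6 CPM. Il17ra, the receptor of interleukin 17 (chr6:120473493-120473857), was lowest in MPP2, with medians of 40.1, 30.4, 78.8 and 96.9 CPM (MPP4 against MPP2 1.80 ± 0.30, adjusted p 0.000341).

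The 12 internal-start regions called among subsets lay in Tmcc2, Cd46, Nrxn3, Tle6, Magi2, Wdr17, Kctd7, Zfp217, Pstpip1, Limk1, Nudt19 and Csf3r. In Tmcc2, a membrane protein gene expressed in red cell precursors, the region at chr1:132367745-132368051 had medians of 43.1, 66.0, 18.8 and 23.3 CPM in HSC, MPP2, MPP3 and MPP4, and MPP3 was lower than MPP2 (-1.59 ± 0.29, adjusted p 0.000207). Cd46, a complement regulator (chr1:195092011-195092543), had medians of 127, 129, 54.9 and 72.2 CPM (-1.15 ± 0.21, 0.000336). In both genes the ranges of MPP3 and HSC overlapped. Limk1, a kinase that acts on cofilin (chr5:134678061-134678412), ran from 20.4 to 30.8 CPM in HSC and from 48.3 to 69.6 in MPP3, without overlap (1.15 ± 0.30, 0.0228). This call held under 25 of 30 alternatives and was lost with DESeq2 and when WT HSC replicate 2, IκB– HSC replicate 1, WT MPP3 replicate 1 or WT MPP3 replicates 2 and 3 were left out (adjusted p up to 0.0785). Csf3r, the receptor of G-CSF and a granulocyte gene (chr4:126024550-126024744), had medians of 9.48, 9.05, 33.2 and 20.6 CPM (MPP3 against MPP2 1.36 ± 0.43, 0.0396), and this call held under 19 of 30 alternatives. Zfp217, a zinc finger gene, was higher in MPP3 than in MPP2 (0.82 ± 0.22, 0.0115), a call lost without WT MPP2 replicate 1 or without WT MPP3 replicates 2 and 3 (0.132).

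Blood transcription factor genes held 57 tested regions, in 29 of 59 listed genes. For the mean recipient effect 1 was higher and 3 lower (median log2 fold change -0.10, against -0.0070 over all intragenic regions), where 1.73% of all regions and 2.83% of intragenic ones were called, and leaving out 1 replicate gave 0 (without IκB– MPP4 replicate 3) to 7 calls (without IκB– HSC replicate 1), and 2 when replicate 3 of IκB– HSC was left out. The fit with the gene-end share gave 2 higher and 7 lower. Of the 3 lower regions in the main fit, 2 lay in Zfpm1, which encodes FOG1, the partner of GATA1. The one at chr8:122309249-122309750 had medians of 67.0 CPM in WT and 28.3 in IκB– recipients (-0.98 ± 0.23, adjusted p 0.0197), and the one at chr8:122321614-122321964 47.2 and 16.9 (-1.23 ± 0.29, 0.0197), and their adjusted p was 0.065 without WT MPP3 replicates 2 and 3 and 0.0734 without WT MPP3 replicate 1. A region in Bcl11a, a regulator of lymphoid and globin genes, was lower (-1.20 ± 0.30, 0.0319; 0.148 without WT MPP4 replicate 2) and one in Klf13 higher (0.60 ± 0.16, 0.0423; 0.144 without IκB– MPP4 replicate 3). In MPP3 against MPP2, 2 regions of the list were higher and 10 lower, where 8.12% of all regions and 13.1% of intragenic ones were called, and the count was 7 without WT MPP2 replicate 2. With the gene-end share in the fit, 2 were higher and 5 lower in this contrast. Etv6, an ETS repressor needed by adult HSC, held a region at chr6:134226787-134227142 with medians of 43.4, 54.5, 10.6 and 14.6 CPM in HSC, MPP2, MPP3 and MPP4, lower in MPP3 than in MPP2 (-2.35 ± 0.34, 9.22e-06) and in HSC (-1.99 ± 0.39, 0.00163). Ets1, an ETS activator of lymphoid cells, went the other way at chr9:32706004-32706393, with medians of 16.1, 13.3, 47.0 and 71.3 CPM (MPP4 against MPP2 1.94 ± 0.34, 0.000754). Runx1, a master regulator of blood formation, was lower in MPP3 than in MPP2 at chr16:92822147-92822508 (-0.99 ± 0.22, 0.00252).

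Receptor and adhesion genes held 26 tested regions in 21 of 43 genes, with 0 higher and 2 lower for the mean recipient effect, where 1.73% of all regions were called. The count was 1 without WT MPP2 replicate 2 and 4 without IκB– HSC replicate 1. Slamf1 encodes CD150, one of the markers used for sorting, and its region at chr1:171773271-171773506 had 3.75, 21.8 and 54.3 CPM in WT and 0, 7.39 and 13.6 CPM in IκB– recipients (-1.95 ± 0.44, adjusted p 0.0157; 0.15 without WT MPP3 replicates 2 and 3). Its medians in the order HSC, MPP2, MPP3, MPP4 were 16.1, 17.5, 1.89 and 6.12 CPM, so that it was about as open in HSC, with a gate written as CD150–, as in CD150+ MPP2, and MPP3 was lower than MPP2 (-2.45 ± 0.61, 0.00691). Itga4, an integrin subunit that holds progenitors in the marrow, was lower in IκB– recipients (medians of 55.1 and 27.03 CPM, -1.01 ± 0.22, 0.0103). Notch1 was higher in MPP3 than in HSC (1.27 ± 0.32, 0.0197), with 51.2 to 83.1 against 13.2 to 42.0 CPM, and this call was lost with DESeq2 and without WT HSC replicate 2, WT MPP3 replicate 1 or WT MPP3 replicates 2 and 3 (adjusted p up to 0.0566). Flt3, the marker of the MPP4 gate, held 2 tested regions, the first with medians of 8.30, 12.1, 13.6 and 25.8 CPM and the second with 29.2, 35.3, 32.2 and 53.9. MPP4 was the highest subset in both, and for the second the contrast with HSC had an adjusted p of 0.054 (1.15 ± 0.32).

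Among NF-κB pathway genes, 11 of 41 held 16 tested regions, and 2 were called for the mean recipient effect, both higher and both in Bcl3 (median of the list 0.14), where 0.608% of all regions were called higher. Bcl3 is an IκB family protein that works with NF-κB in the nucleus. The region at chr7:19816386-19816595 had 9.0, 24.4 and 42.6 CPM in WT and 28.9, 42.9 and 74.9 in IκB– recipients (0.89 ± 0.23, adjusted p 0.0319), and the one at chr7:19817361-19817769 24.0004, 44.7 and 70.8 against 45.6, 79.3 and 97.2 (0.63 ± 0.17, 0.0456). They held under 20 and 9 of 30 alternatives, and without IκB– HSC replicate 3, or with DESeq2, neither was called. In MPP3 against MPP2, 1 region of this list was lower, in Tnfaip8. Signalling and cytoskeleton genes held 52 tested regions in 30 of 56 genes, with 1 higher for the mean recipient effect, in Inpp5d (3 called when IκB– HSC replicate 1 was left out), and 1 higher and 5 lower in MPP3 against MPP2, where 1 was called without WT MPP2 replicate 1. For the signalling list these shares are near those over all regions for the recipient effect (1.73%) and over all intragenic regions for MPP3 against MPP2 (13.1%). Chromatin regulators held 33 tested regions in 20 of 42 genes. None of these 33 was called for the mean recipient effect, the joint test or any subset contrast given here (1.73%, 7.2% and, for MPP3 against MPP2, 8.12% of all regions were called), where DESeq2 called 0 for the recipient effect, and leaving out 1 replicate gave up to 1 for that effect and up to 3 in MPP3 against MPP2.

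Long genes known mainly from neurons and other tissues held 44 tested regions in 30 of 55 genes. Their calls in MPP3 were mostly lower: against MPP2, 13 were lower and 0 higher (median log2 fold change -0.58, against 0.012 over all intragenic regions), and against HSC 6 were lower and 0 higher (median -0.42), where 6.27% and 1.95% of all regions were called lower. Calls in MPP3 against MPP2 were also mostly lower in all 667 tested intragenic regions over 50 kb from a gene end, with 14 higher and 112 lower (median -0.20). The 844 tested intergenic regions over 50 kb away gave 19 higher and 163 lower (median -0.31). In the list of long genes, 1 was higher and 6 lower against HSC with total counts and also with the gene-end share in the fit, where the median was -0.15. In MPP4, 2 were higher and 3 lower against HSC, and also against MPP2 (medians 0.016 and -0.30). Both counts of 5 became 1 without IκB– MPP4 replicate 3. Against MPP2 the count was 10 without IκB– HSC replicate 3, and with the gene-end share in the fit 2 were higher and 12 lower. For the mean recipient effect 0 were higher and 3 lower (median -0.30), where 1.13% of all regions were called lower, and this count became 1 when IκB– HSC replicate 3 was left out and 11 when replicate 1 was. Their summed level was 1826 to 2784 CPM in MPP2 and 896 to 2111 CPM in MPP3. The libraries with the lowest sums had large shares of counts at gene ends, 74.1% in IκB– HSC replicate 3 (824 CPM) and 71.9% in IκB– MPP3 replicate 1 (896 CPM), and the highest sum, in IκB– HSC replicate 1 (3080 CPM), went with 63.2%. The order was not strict: WT MPP4 replicate 1 had the smallest share, 61.7%, and 2362 CPM, and IκB– MPP4 replicate 2 had 65.5% and 1904 CPM, below the 2784 CPM of IκB– MPP2 replicate 1 at 67.0%. With this share in the fit, MPP3 against MPP2 gave 11 lower calls and 0 higher in this list and the median moved from -0.58 to -0.30, while without WT MPP2 replicate 1 the count was 7. The part of the gene-end share in these results was not tested beyond that fit.

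**Figure D5:**
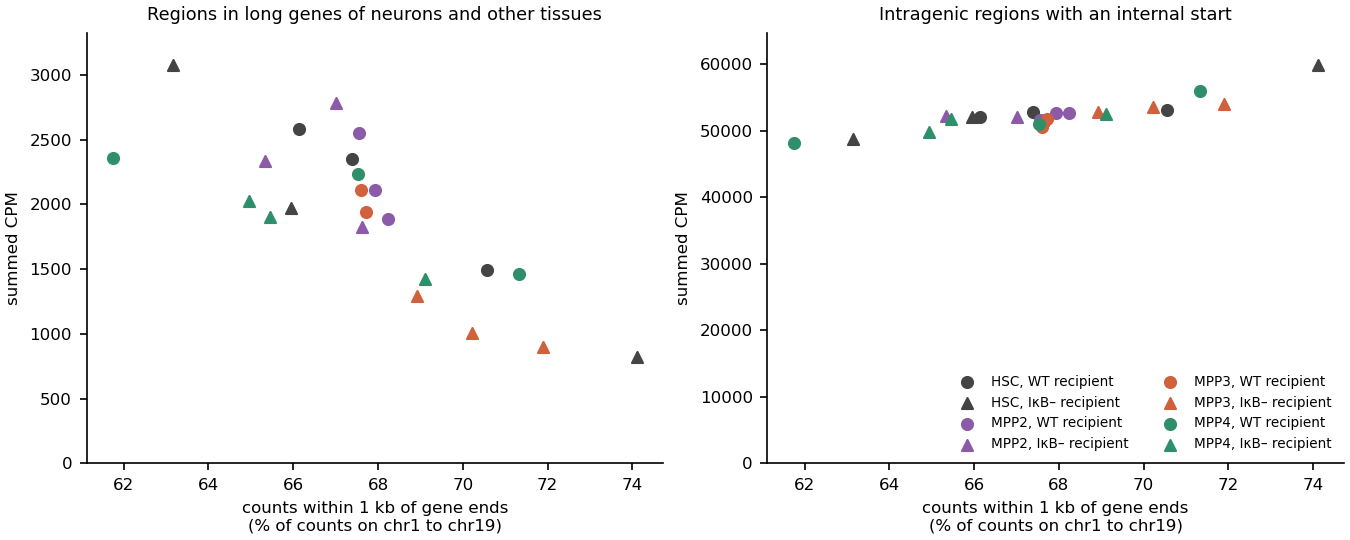
Summed CPM per replicate (vertical axes) of the intragenic regions in listed long genes of neurons and other tissues (left) and of all intragenic regions with an internal start (right) against the percent of autosomal counts within 1 kb of gene ends; colours are subsets, circles WT and triangles IκB– recipients. On the left the highest sum, 3080 CPM, lies at a gene-end share of 63.2% and the lowest, 824 CPM, at 74.1%, while those on the right run from 48176 to 59935 CPM.

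Markers of other cell types were thinly covered by intragenic regions, so they check the sort only in part. T cell markers had 1 tested region, B cell markers 3, granulocyte and macrophage markers 2, erythroid and mast cell markers 2, megakaryocyte markers 5 and stromal and endothelial markers 1. None of these 14 was called for the mean recipient effect (1.73% of all regions were), and DESeq2 called 0, but the median log2 fold change was -0.51 over the megakaryocyte regions (-0.60 to -0.37 under the alternatives) and 0.40 for the stromal one. Their summed levels overlapped between recipients: 4.72 to 55.1 CPM in WT and 8.84 to 64.9 in IκB– libraries for T cells, 37.8 to 116 and 30.8 to 176 for B cells, and 107 to 264 and 91.5 to 231 for megakaryocytes. Of the 5 megakaryocyte regions 2 were lower in MPP3 than in MPP2 and 2 lower than in HSC (6.27% and 1.95% of all regions were called lower), among them one in Vwf (chr6:125583791-125584028), the von Willebrand factor gene, with medians of 19.9, 27.2, 3.75 and 13.6 CPM in HSC, MPP2, MPP3 and MPP4 (-2.71 ± 0.58, adjusted p 0.00152). The stromal marker region, in Pdgfrb, was higher in MPP3 than in HSC (1.94 ± 0.50, 0.0231). That call held under 25 of 30 alternatives and was lost when WT HSC replicate 2, IκB– HSC replicate 1, WT MPP3 replicate 1, WT MPP3 replicates 2 and 3 or IκB– MPP3 replicate 3 was left out (adjusted p up to 0.108), and without IκB– HSC replicate 1 the megakaryocyte count against HSC fell from 2 to 1. The part of other cell types in the subset results was not tested.

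Few genes had more than 1 called region. Of 594 host genes with at least 2 tested regions, 4 had at least 2 called for the mean recipient effect: Bcl3, Plxnc1, Tiam1 and Zfpm1, in 3 of them in one direction. In MPP3 against MPP2 there were 25 such genes, 19 in one direction. When the counts of all intragenic regions of a gene were summed, 60 of 2440 host genes were called for the mean recipient effect, 24 higher and 36 lower (1.48% of all 12447 units tested, 0.506% higher and 0.972% lower), and leaving out 1 replicate gave 12 (WT MPP3 replicates 2 and 3) to 107 (IκB– HSC replicate 1). Without IκB– HSC replicate 3 the recipient count was 40. For any subset difference 263 host genes were called (386 without that library), where 6.17% of all units were. Rcsd1 (1.03 ± 0.17, adjusted p 0.00109), Inpp5d (0.79 ± 0.15, 0.00302) and Bcl3 (0.73 ± 0.14, 0.0041) led the higher genes and Zfpm1 (-0.94 ± 0.17, 0.00198) was among the lower. Alox5ap, which is needed to make leukotrienes, was called on the sum of its 4 regions (0.72 ± 0.17, 0.0266) although none was called alone, and all 4 were above 0. This call held under 23 of 29 alternatives, with an adjusted p of up to 0.136. Gse1 had the most regions of any gene, 15: their recipient effects ran from -1.16 to 0.86, 7 lay above 0, 1 was called (-1.16 ± 0.25, 0.0111), and the sum was 0.0073 ± 0.11.

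Regions at the ends of the same genes were also counted. The 36 host genes of the 37 regions higher in IκB– recipients had 23 tested regions at their ends. Of these 0 were called and 15 had the same sign, with a median log2 fold change of 0.05 against 1.05 for the intragenic regions. The 55 host genes of the 57 lower regions had 24, of which 1 was called (St3gal2) and 19 had the same sign, with medians of -0.17 and -1.01. Over all 7232 tested regions near gene ends, 16 were called higher and 23 lower for the mean recipient effect. In MPP3 against MPP2, 8 of 147 end regions of genes with a lower intragenic region were called, all lower, with medians of -0.06 and -1.44. Over all regions near gene ends, 142 of 7232 were called lower in that contrast. Whether the end regions of these genes were called more often than others was not tested. The intragenic regions were selected here for being called, so their medians are given as description.

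The most accessible intragenic regions gave no recipient call, and those in Sfi1 and Aida varied strongly within groups. Sfi1, a centrosome gene, held the 2 with the highest mean: the one at chr11:3184555-3185603 ran from 148 CPM in WT MPP4 replicate 2 to 2486 CPM in WT MPP4 replicate 1, and the mean recipient effect was 0.13 ± 0.50. Aida (chr1:183299069-183299648) ran from 61.0 CPM in IκB– MPP4 replicate 3 to 1494 CPM in WT MPP4 replicate 1. Both were also high in WT HSC replicate 1, at 1212 CPM in Sfi1, and in IκB– HSC replicate 1, at 1526 CPM in Sfi1 and 1051 CPM in Aida. Slc39a10, a zinc transporter gene and the next in level, stayed within 200 to 497 CPM over all replicates. The libraries named as high in Sfi1 were shallow, with 150590 (WT MPP4 replicate 1), 174229 (WT HSC replicate 1) and 156205 total counts (IκB– HSC replicate 1). The median was 284353, and the part of depth in these values was not tested.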

How the data were processed

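The values are raw counts per region, whole numbers deposited by the authors in 1 table for 13910 regions and 24 libraries. The submitters' processing notes name the build mm10 and Bowtie2, SAMtools, Picard, MACS2 2.1.0 and deepTools. Whether insertion sites were shifted, duplicates removed or peaks called on pooled samples is not given in the sources used here. Column names carry KO for IκB– and LT for HSC, and matched 1 title each. Groups and replicate numbers came from the titles.

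Regions were placed against RefSeq genes of GRCm38.p6. The tests used edgeR 4.0.16 in R 4.3.3: TMM scaling, filterByExpr (13325 regions kept), a robust quasi-likelihood fit of 8 group means with 15 residual degrees of freedom, and Benjamini-Hochberg adjustment over all regions tested. Fold changes are log2 values with standard errors, and CPM values were computed from the deposited counts. Permutation tests of shares used numpy 2.4.6 and scipy 1.17.1. Alternatives were DESeq2 1.42.0, other scalings, no filter, a 5 kb margin, a replicate block and leaving out each replicate. The code was tested on simulated counts with known changes. Counting intervals are exact 95% intervals for counting error alone: reads copied by PCR are not separate molecules.

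Named regions are the 8 higher and 8 lower called regions of smallest p per contrast, 2 each way per subset for the recipient effect, the 10 of smallest p in the joint test, up to 4 per gene list, the 8 of highest level and the 6 host genes each way. Not all of these are printed, and some results are not reported here. The called regions with an internal start and all called within 1 subset were added after seeing the data, as was the internal-start split. The members and the gene lists were chosen with earlier results of these data known.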

Additional observations from a re-analysis of the deposited data

Results flagged for a closer look

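The recipient difference in the share of counts in intragenic regions had opposite signs in MPP2 and MPP3. In MPP2 every IκB– library (19.2% to 19.5%) lay above every WT library (18.2% to 18.8%), a difference of 0.746 percentage points. In MPP3 every IκB– library (17.7% to 18.9%) lay below the WT replicates (18.9% and 19.0%), a difference of -0.715 points. The effects differed by 1.46 points, with an exact two-sided permutation p of 0.02 over 200 arrangements and 0.12 after Benjamini-Hochberg adjustment over the 6 pairs of subsets, so it did not pass the correction. The other 5 pairs had p from 0.41 to 0.865. This test was chosen after seeing the shares, and in MPP3 it rests on 2 WT replicates. The share of counts at gene ends, a part of the same autosomal total, moved the opposite way in MPP3, at 68.9% to 71.9% in IκB– and 67.6% to 67.7% in WT libraries. In MPP2 the gene-end share was 65.3% to 67.6% in IκB– and 67.6% to 68.2% in WT libraries. Its part in the result was not tested.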

How the results depend on the processing

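Of the 132 single regions or host genes picked by the naming rule, 114 neither lost a call nor changed direction under any alternative run. Regions described for another reason, such as list members and internal starts, are not among these. Counts of calls depended more on the settings. Replicates of the same number tended to deviate together. The median r was 0.129 over 36 pairs of the same recipient type, 22 of them over 0.1, and 0.0868 over 48 pairs of the other recipient type, 20 over 0.1. For the 168 pairs of different numbers it was -0.0549, but deviations were taken from group means, which by itself makes such values negative. All 24 libraries correlated best with one of their own number, a hint from the data and not from the design. With the replicate number as a block the calls were 133 in MPP3 between recipients (15 higher, 118 lower), 171 for the mean recipient effect, 1 for the interaction, 723 for any subset, 14, 308 and 177 for MPP2, MPP3 and MPP4 against HSC, 730 and 364 for MPP3 and MPP4 against MPP2, and 128 and 522 for summed host genes (recipient, any subset). With the 24 libraries kept apart and no block, MPP3 gave 27 recipient calls. The gene-end share as a covariate, chosen after seeing the data, gave 16 recipient calls in MPP3, 153 for the mean effect, 11 and 139 for MPP2 and MPP4 against HSC, 393 for MPP4 against MPP2 and 115 host genes. DESeq2 gave 58 for the mean effect. DESeq2, its size factors in edgeR and total counts gave 1 each in MPP4 between recipients, and total counts gave 7 for MPP2 against HSC. The 5 kb margin turned the recipient difference in share from 0.0837 to -0.0214 points. Leaving out 1 replicate gave the following ranges: 0 to 1 recipient calls in HSC, 0 to 53 in MPP3, 0 to 3 in MPP4, 18 to 162 for the mean, 283 to 587 for any subset, 1 to 12, 79 to 295 and 24 to 121 for MPP2, MPP3 and MPP4 against HSC, 259 to 579 and 83 to 318 for MPP3 and MPP4 against MPP2, and 12 to 107 and 175 to 386 host genes. The share differences ran from -0.143 to 0.386 points for recipients and, for MPP2, MPP3 and MPP4 against HSC, from 0.0552 to 1.09, -0.350 to 0.683 and 0.239 to 1.30. The libraries that moved a count by over 1.5 times include, beside those at the ends of these ranges, WT MPP3 replicates 2 and 3 (90 for MPP3 against HSC, 262 for MPP3 against MPP2), IκB– MPP4 replicate 3 (25 for the mean effect) and WT MPP4 replicate 2 (13 host genes). Further such libraries were, for the mean effect or host genes, WT HSC replicates 1 and 2, WT MPP2 replicate 2, WT MPP3 replicate 1, all IκB– MPP2 replicates and IκB– MPP3 replicates 1 and 3, and for the subset contrasts WT HSC replicates 2 and 3, WT MPP2 replicate 2, WT MPP3 replicate 1, WT MPP4 replicates 1 and 2, IκB– MPP2 replicate 1 and IκB– MPP4 replicates 1 and 3. Where a setting moved a count, the cause was not tested. Small changes can be missed at this depth and replication: in simulated data a 2-fold change was recovered in 32% of regions for MPP3 and 24% for MPP4 against HSC, and 71.5% for the mean recipient effect.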
